A study of Mus musculus with 27 samples.

Results

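The genes described here are the Toll-like receptors Tlr1, Tlr2, Tlr4, Tlr6, Tlr7, Tlr8 and Tlr13 with the co-receptor Cd14 and the adaptor Myd88. They were taken by symbol from a table of 9996 genes, and all 9 were present. RNA had been sequenced from neutrophils and macrophages that were sorted by flow cytometry out of mammary tumours of K14cre;Cdh1F/F;Trp53F/F mice. In this model a keratin 14 promoter drives Cre in epithelium, which deletes E-cadherin and p53 there, so every group carries the same tumour genotype and the sorted cells are host cells. Mice received a control antibody, anti-CSF-1R (an antibody against the receptor of the macrophage growth factor CSF-1), cisplatin (a DNA-crosslinking drug) plus control antibody, or both agents, here called the combination. Of the 15 neutrophil libraries, 4 were controls, 4 came from anti-CSF-1R treatment, 3 from cisplatin and 4 from the combination. Of the 12 macrophage libraries, 4 were controls, 2 came from anti-CSF-1R treatment, 4 from cisplatin and 2 from the combination. Tumours of cisplatin-treated mice were taken 1 day after the second of 2 injections and all others at a size of 100 mm2, so the drug and the endpoint cannot be told apart. The labels give neither the gates nor the ages of the mice.

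Toll-like receptors are the membrane sensors with which phagocytes recognise microbial lipids, lipopeptides and nucleic acids. Tlr4 senses lipopolysaccharide, which Cd14 hands over to it, and Tlr2 senses lipopeptides as a pair with Tlr1 or Tlr6. Tlr7, Tlr8 and Tlr13 sit in endosomes, where Tlr7 and Tlr8 are receptors of single-stranded RNA and mouse Tlr13 recognises bacterial ribosomal RNA. All of them signal through Myd88, which recruits IRAK kinases and leads to NF-kB and the induction of inflammatory cytokines.

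Values are the authors' normalised read counts, read counts divided by a library size factor, after decimal points that had been lost in the deposited table were restored. Of the 243 values of the 9 genes, 179 allowed 1 place of the point, and 4 were left out because no place reached a probability of 0.95. The decoded reads over all listed genes came to between 998742 and 3283448 per neutrophil library and between 1298314 and 7498045 per macrophage library, and 1 read was worth 0.686 to 2.08 normalised reads in neutrophils and 0.215 to 1.13 in macrophages. All 14 measured macrophage markers were higher, and all 10 measured neutrophil markers lower, in control macrophages than in control neutrophils. The summed level of the neutrophil markers was 251 to 1520 in control macrophages, 1035 to 1128 with anti-CSF-1R, 192 to 371 with cisplatin and 1348 to 1489 in the combination, against 21253 to 99728 over the neutrophil libraries. Among macrophages, anti-CSF-1R library 2 held a summed mast cell marker level of 9576, against 17.4 in anti-CSF-1R library 1 and 14.2 to 76.1 in controls. Among neutrophils, cisplatin library 2 and combination library 2 had the highest summed neutrophil markers (90845 and 99728, the next library 55811) and stood apart from the rest. For some of the results that use these libraries, values without them are also given.

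Positions are those of GENCODE vM21 (GRCm38). Tlr1 (chromosome 5, 64924679 to 64933563, minus strand) and Tlr6 (chromosome 5, 64952031 to 64960097, minus strand) are close relatives. Tlr8 (chromosome X, 167242696 to 167264329, minus strand) and Tlr7 (chromosome X, 167304929 to 167330558, minus strand) lie beside each other, with Tlr13 elsewhere on the chromosome (chromosome X, 106143204 to 106160493, plus strand). Tlr2 is on chromosome 3 (83836272 to 83841767, minus strand), Tlr4 on chromosome 4 (66827584 to 66930284, plus strand) and Myd88 on chromosome 9 (119335934 to 119341411, minus strand). Of the exonic bases of Myd88, 290 also belong to exons of Acaa1a on the opposite strand, and the counting is not stated to use strand, so reads there cannot be assigned with certainty.

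Tlr1 and Tlr6 share 6 identical stretches of 50 or more bases, which lie within both coding sequences and add up to 748 bases, or 24.7% of the Tlr1 and 20.3% of the Tlr6 transcript. No other pair of the 9 genes shares a run of 50 bases. Reads from these stretches can be assigned to either gene, so the values of both are uncertain by an amount that was not tested. The longest stretch, of 229 bases, is shown because a read inside it cannot tell Tlr1 (64925537 to 64925765) from Tlr6 (64953828 to 64954056). It is written 5′ to 3′ along the coding strand.
Tlr1 and Tlr6 shared: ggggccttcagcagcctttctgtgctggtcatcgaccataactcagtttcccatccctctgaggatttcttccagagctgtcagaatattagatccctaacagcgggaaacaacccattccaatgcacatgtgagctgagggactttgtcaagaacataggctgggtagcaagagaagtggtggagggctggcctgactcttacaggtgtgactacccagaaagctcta

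Start-site regions from RefSeq (GRCm38.p6), 250 bases before to 50 after the start, were found for 6 of the 9 genes. Those of Tlr1, Tlr6, Tlr13 and Tlr8 are printed 5′ to 3′ in the direction of transcription, because these genes were, in this order, not called, lower, lower and higher in control macrophages. Capitals mark GAGGAA or its reverse complement, the core letters of sites for PU.1, the lineage factor of myeloid cells.
Tlr1 (chr5:64933509-64933808, minus strand): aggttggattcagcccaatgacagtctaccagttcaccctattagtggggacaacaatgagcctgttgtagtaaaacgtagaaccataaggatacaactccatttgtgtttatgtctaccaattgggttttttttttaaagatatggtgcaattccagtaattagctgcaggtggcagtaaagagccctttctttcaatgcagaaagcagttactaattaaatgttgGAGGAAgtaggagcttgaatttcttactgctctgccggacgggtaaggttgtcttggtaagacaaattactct
Tlr6 (chr5:64959999-64960298, minus strand): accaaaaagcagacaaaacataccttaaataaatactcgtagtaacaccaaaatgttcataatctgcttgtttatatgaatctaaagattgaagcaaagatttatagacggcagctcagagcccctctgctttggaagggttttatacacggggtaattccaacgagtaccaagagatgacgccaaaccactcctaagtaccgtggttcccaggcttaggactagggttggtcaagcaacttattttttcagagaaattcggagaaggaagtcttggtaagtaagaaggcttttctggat
Tlr13 (chrX:106143025-106143324, plus strand): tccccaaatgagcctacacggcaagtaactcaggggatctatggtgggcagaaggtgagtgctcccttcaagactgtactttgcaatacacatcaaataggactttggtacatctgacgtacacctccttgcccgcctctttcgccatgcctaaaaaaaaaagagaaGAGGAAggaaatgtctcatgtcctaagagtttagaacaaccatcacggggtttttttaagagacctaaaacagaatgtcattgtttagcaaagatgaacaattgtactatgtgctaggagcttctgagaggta
Tlr8 (chrX:167264280-167264579, minus strand): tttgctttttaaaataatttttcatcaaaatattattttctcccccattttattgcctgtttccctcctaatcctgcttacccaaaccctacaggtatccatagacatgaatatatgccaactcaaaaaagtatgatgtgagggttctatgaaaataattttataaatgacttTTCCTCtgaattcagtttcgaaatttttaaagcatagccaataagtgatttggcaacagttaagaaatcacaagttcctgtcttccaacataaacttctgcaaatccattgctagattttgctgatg
The PU.1 core occurred 1 time in the windows of Tlr1, Tlr13 and Tlr8 and not in that of Tlr6, and 28.3% of all 32851 RefSeq windows hold it on either strand. The NF-kB letters GGGNNNNNCC (in 50.8% of windows) matched 1 time in the Tlr6 window and 5 times in that of Tlr2. The letters TTNCNNAA of C/EBP sites (40.7%) matched 5 times in the Tlr8 window and 1 time in those of Tlr13 and Tlr2. The interferon response letters GAAANNGAAA (3.4%) matched 1 time, in the Myd88 window, and the AP-1 letters TGANTCA (7.8%) matched in none of the 6. Both strands were searched, matches of 1 motif may overlap each other, and no match overlapped a match of another motif.

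Per kilobase of exon, Cd14 was the most abundant of the 9 genes in every group, and Tlr2 and Tlr13 took the next 2 places in every group. In control neutrophils Cd14 stood at 8474 normalised reads per kilobase, Tlr2 at 298, Tlr13 at 226, Tlr6 at 121 and Tlr4 at 94.8. Myd88 (81.1) and Tlr1 (47.002) followed, and Tlr8 (17.1) and Tlr7 (12.3) were lowest. In control macrophages the order after Cd14 (1207), Tlr2 (253) and Tlr13 (86.96) was different: Tlr7 (60.5), Tlr1 (39.4) and Tlr8 (35.4) came before Tlr4 (17.9), Myd88 (15.3) and Tlr6 (6.85). The lowest and highest libraries of Tlr7 (36.3 and 80.9) and Tlr1 (27.2 and 49.03) overlapped, as did those of Tlr4 (8.64 and 26.6) and Myd88 (7.47 and 25.3).

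**Figure D1:**
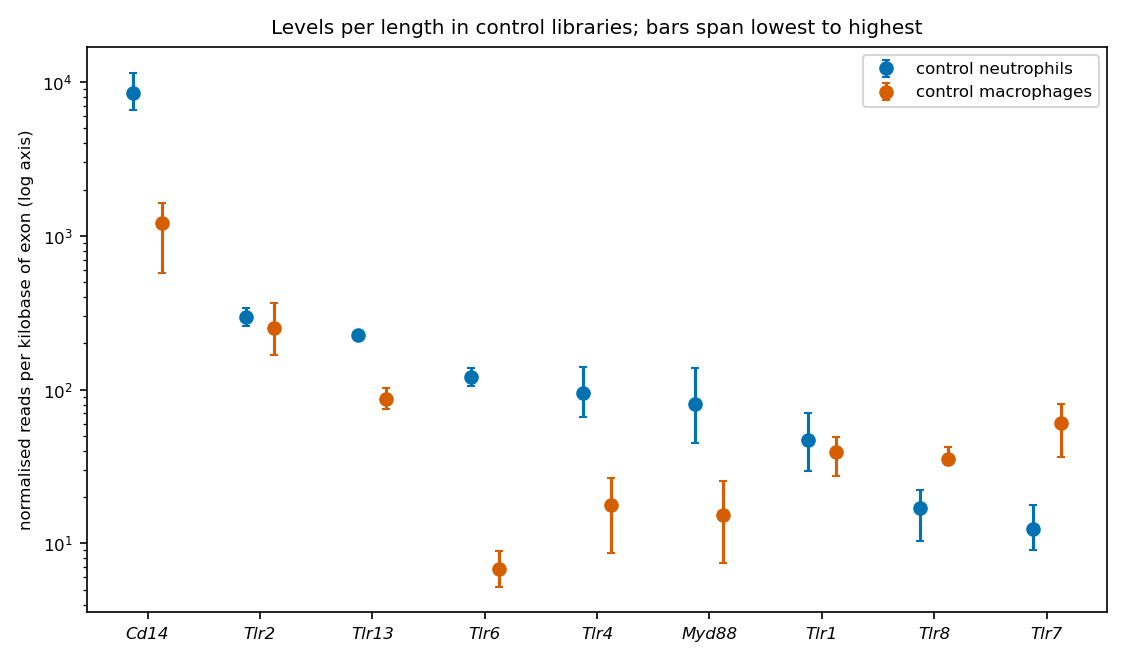
Mean normalised reads per kilobase of exon (log axis) of the 9 genes in the 4 control neutrophil and 4 control macrophage libraries, with bars from the lowest to the highest library. Cd14, Tlr13, Tlr6, Tlr4 and Myd88 separate downwards and Tlr7 and Tlr8 upwards in macrophages. The ranges of Tlr1 and Tlr2 overlap between the cell types.

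In control tumours 5 genes were lower in macrophages than in neutrophils (Cd14, Tlr4, Tlr6, Tlr13 and Myd88) and 2 were higher (Tlr7 and Tlr8), at an adjusted p under 0.05 in limma. Tlr1 and Tlr2 did not pass. Of the 9792 genes tested, 49.5% passed, 23.1% lower and 26.4% higher in macrophages, so 7 of 9 stands against a background in which about every other gene passed. In 7 of the 9 genes the groups did not overlap, as in 48.3% of all genes. The median log2 difference of the 9 genes was -1.39 and that of all genes 0.15. In bulk RNA of sorted cells, fewer cells with a transcript and less transcript per cell cannot be told apart. In the plot of cell type differences, 8 of the 9 genes had the same sign in all 4 treatments, and Tlr1 lay near 0.

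**Figure D2:**
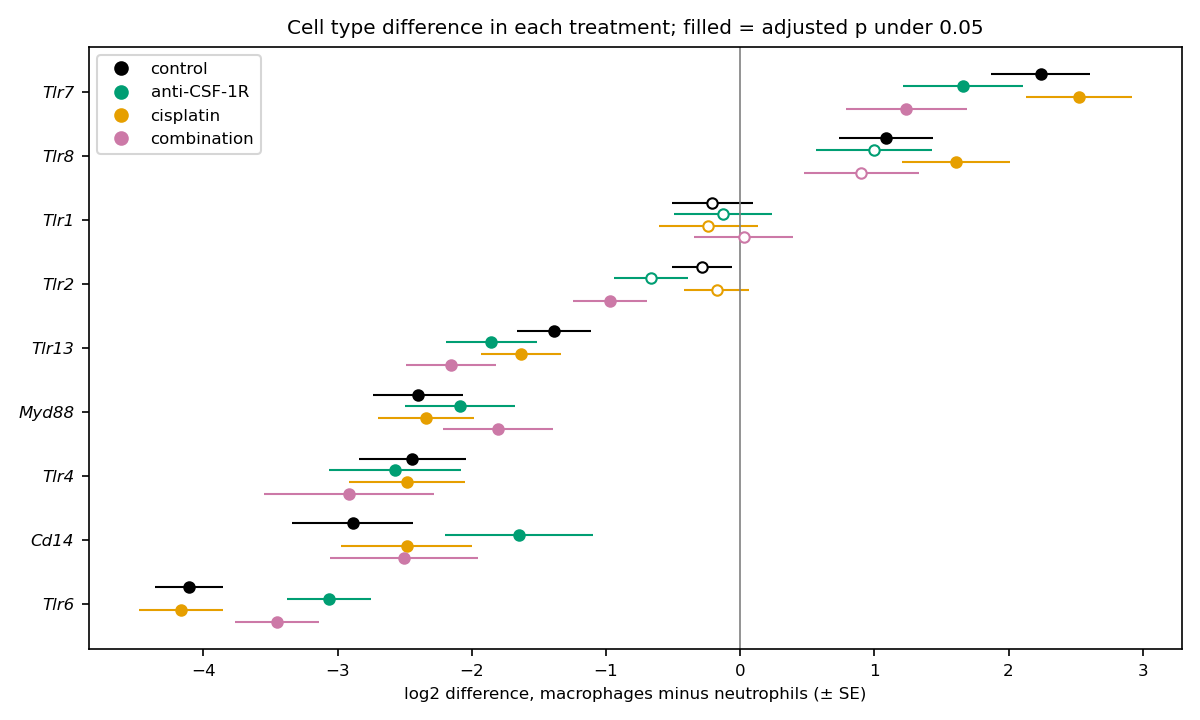
Log2 difference between macrophages and neutrophils (macrophages minus neutrophils, on the log2 of the normalised count + 1 scale) with its standard error, for each gene and treatment. Filled points passed an adjusted p of 0.05. Over filled and open points, Tlr6 sits farthest to the left (-4.17 to -3.07), Tlr7 and Tlr8 to the right of 0 (0.90 to 2.53), and Tlr1 between -0.24 and 0.03. Tlr8 is filled in control and cisplatin only, and Tlr1 in no treatment.

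Cd14, the lipopolysaccharide co-receptor, lies on chromosome 18 (36725067 to 36726798, minus strand). It stood in control neutrophils at 12893, 19936, 14402 and 11475 normalised reads, and in control macrophages at 1936, 987, 2619 and 2817. The lowest neutrophil library was above the highest macrophage library. The log2 difference was -2.89 ± 0.45 (SE, adjusted p = 1.14e-05), or 7.4-fold. Cd14 remained lower in macrophages with anti-CSF-1R (-1.65 ± 0.55 SE, adjusted p = 0.0192), cisplatin (-2.48 ± 0.49 SE, adjusted p = 0.000142) and the combination (-2.51 ± 0.55 SE, adjusted p = 0.000707). The anti-CSF-1R difference did not pass without macrophage anti-CSF-1R library 1 (-0.82, adjusted p = 0.383), which leaves the library with the mast cell markers.

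Tlr4, the lipopolysaccharide receptor, stood at 535, 779, 426 and 368 in control neutrophils and at 103, 148, 97.8 and 47.99 in control macrophages. Here, too, the groups did not overlap, and the difference was 5.44-fold (log2 -2.44 ± 0.40 SE, adjusted p = 2.39e-05). The difference was -2.57 ± 0.49 (SE) with anti-CSF-1R, -2.48 ± 0.43 (SE) with cisplatin and -2.92 ± 0.63 (SE) in the combination, all past the threshold. In the combination, 1 of the 2 macrophage values was left out, and the spread of the remaining one (127) was taken from the other groups.

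Tlr6, which pairs with Tlr2, showed the widest gap of the 9 genes. It stood at 391, 438, 516 and 455 in control neutrophils and at 26.1, 19.5, 33.1 and 23.4 in control macrophages. The lowest neutrophil library was far above the highest macrophage library (17.2-fold, log2 -4.11 ± 0.26 SE, adjusted p = 7.02e-12). The difference was -3.07 ± 0.31 (SE, adjusted p = 5.81e-08) with anti-CSF-1R, -4.17 ± 0.31 (SE, adjusted p = 1.33e-10) with cisplatin and -3.45 ± 0.31 (SE, adjusted p = 8.12e-09) in the combination.

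Tlr1, the other partner of Tlr2, did not separate the cell types. It stood at 123, 235, 172 and 99.05 in control neutrophils and at 91.1, 133, 139 and 164 in control macrophages, ranges that overlap (log2 -0.21 ± 0.30 SE, interval of 2 SE from -0.81 to 0.39, adjusted p = 0.581). Over all 8 groups its means lay between 116 and 157, and each group overlapped its neighbour in the order of means.

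Tlr2, the receptor of lipopeptides, stood at 786, 788, 994 and 1025 in control neutrophils and at 699, 504, 743 and 1099 in control macrophages. These ranges overlap, and the log2 difference of -0.28 ± 0.23 (SE, interval of 2 SE from -0.73 to 0.17) did not pass (adjusted p = 0.301). With anti-CSF-1R the difference was -0.66 ± 0.28 (SE, adjusted p = 0.0566) and with cisplatin -0.17 ± 0.24 (SE, adjusted p = 0.558). In the combination Tlr2 was lower in macrophages (-0.97 ± 0.28 SE, adjusted p = 0.00617, groups apart). Quantile normalisation ended that call (0.0019, adjusted p = 0.996) and put Tlr2 higher in macrophages with cisplatin (0.78, adjusted p = 0.0081), so its direction depends on the scaling. The combination call was also lost without macrophage combination library 1 (-0.79, adjusted p = 0.1).

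Tlr7, the endosomal receptor of single-stranded RNA, was higher in macrophages. It stood at 72.6, 36.95, 44.4 and 47.2 in control neutrophils and at 315, 330, 148 and 194 in control macrophages, with no overlap (4.72-fold, log2 2.24 ± 0.37 SE, adjusted p = 2.16e-05). The difference was 1.66 ± 0.45 (SE, adjusted p = 0.00482) with anti-CSF-1R, 2.53 ± 0.40 (SE, adjusted p = 9.81e-06) with cisplatin and 1.24 ± 0.45 (SE, adjusted p = 0.0267) in the combination. The combination call was lost without the 2 neutrophil libraries that stood apart (1.15, adjusted p = 0.0615), and also without neutrophil combination library 2 or 3 or either macrophage combination library, with adjusted p up to 0.121.

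Tlr8, the related RNA receptor, stood at 71.1, 79.8, 37.004 and 57.4 in control neutrophils and at 152, 118, 116 and 122 in control macrophages. The groups did not overlap, and the difference was 2.12-fold (log2 1.09 ± 0.35 SE, adjusted p = 0.0128). It passed with cisplatin (1.61 ± 0.41 SE, adjusted p = 0.00176) and not with anti-CSF-1R (0.998 ± 0.43 SE, adjusted p = 0.065) or the combination (0.90 ± 0.43 SE, adjusted p = 0.0866). Without neutrophil control library 3 the control difference missed the threshold (adjusted p = 0.0591).

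Tlr13, the sensor of bacterial ribosomal RNA, took the opposite direction to the other endosomal receptors. It stood at 999.7, 918, 964 and 1006 in control neutrophils and at 406, 443, 328 and 320 in control macrophages. The neutrophil libraries lay close together and above all macrophage libraries (2.62-fold, log2 -1.39 ± 0.27 SE, adjusted p = 0.000194). The difference was -1.85 ± 0.34 (SE, adjusted p = 0.000115) with anti-CSF-1R, -1.63 ± 0.30 (SE, adjusted p = 5.87e-05) with cisplatin and -2.15 ± 0.34 (SE, adjusted p = 1.45e-05) in the combination.

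Myd88, the adaptor, stood at 160, 115, 205 and 355 in control neutrophils and at 19.2, 46.2, 26.9 and 65.3 in control macrophages. The groups did not overlap (5.28-fold, log2 -2.40 ± 0.33 SE, adjusted p = 2.11e-06). The difference was -2.09 ± 0.41 (SE, adjusted p = 0.000256) with anti-CSF-1R, -2.34 ± 0.36 (SE, adjusted p = 7.35e-06) with cisplatin and -1.80 ± 0.41 (SE, adjusted p = 0.000899) in the combination.

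Of the 9 genes, 5 were lower and 1 higher in macrophages with anti-CSF-1R, where 40.6% of all genes passed (19% lower, 21.6% higher). With cisplatin 5 were lower and 2 higher, against 55.7% of all genes (26.6% lower, 29.2% higher). In the combination 6 were lower and 1 higher, against 45.5% of all genes (22.9% lower, 22.6% higher). The groups did not overlap in 7 of the 9 genes with anti-CSF-1R (59.1% of all genes), 7 with cisplatin (58.8%) and 8 in the combination (63.3%). Without the 2 neutrophil libraries that stood apart, 7, 6, 7 and 6 of the 9 passed in control, anti-CSF-1R, cisplatin and combination, instead of 7, 6, 7 and 7. Upper quartile scaling moved the median log2 difference of all genes from 0.15 to 0.26 in controls, from 0.15 to 0.37 with cisplatin and from 0.16 to 0.39 in the combination, and quantile normalisation moved it from 0.17 to -0.04 with anti-CSF-1R. In the combination 2196 genes were higher and 2222 lower in macrophages, and upper quartile scaling made that 2910 and 1833. Cd14, Tlr4, Tlr6, Tlr13, Myd88 and Tlr7 kept their control direction and call in all 40 alternatives. Some of the 40 could hardly fail: a looser threshold cannot undo a call. Leaving out a library that is not a control keeps the control estimate and alters only its spread and adjusted p.

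No gene of the 9 passed an adjusted p of 0.05 in limma in any of the 10 comparisons between treatments within a cell type, nor in limma-voom on the decoded reads. In neutrophils the share of all genes that passed was 0.0219% for anti-CSF-1R against control, 0.0439% for cisplatin against control, 0.712% for the combination against control, 0.0219% for the combination against cisplatin and 0% for the combination against anti-CSF-1R. At an unadjusted p under 0.05 the 9 genes gave 1, 1, 4, 1 and 2 in the same order, where 8.43%, 7.41%, 14.7%, 8.22% and 9.22% of all genes did. In macrophages the shares that passed were 1.84%, 0.435%, 2.94%, 3.24% and 0.0222% in the same order. There the 9 genes gave 1, 5, 2, 3 and 0 at an unadjusted p under 0.05, against 19.6%, 9.88%, 17.8%, 19.8% and 8.58% of all genes. The shares that passed depend on the decoding. With decimal points placed without knowledge of the groups, 38, 2, 90, 109 and 0 genes passed in macrophages, instead of 167, 40, 267, 295 and 2. In neutrophils 0, 0, 6, 0 and 0 genes then passed, instead of 2, 4, 65, 2 and 0. Comparisons within a cell type share their control, cisplatin or combination libraries, so they are not independent of each other.

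**Figure D3:**
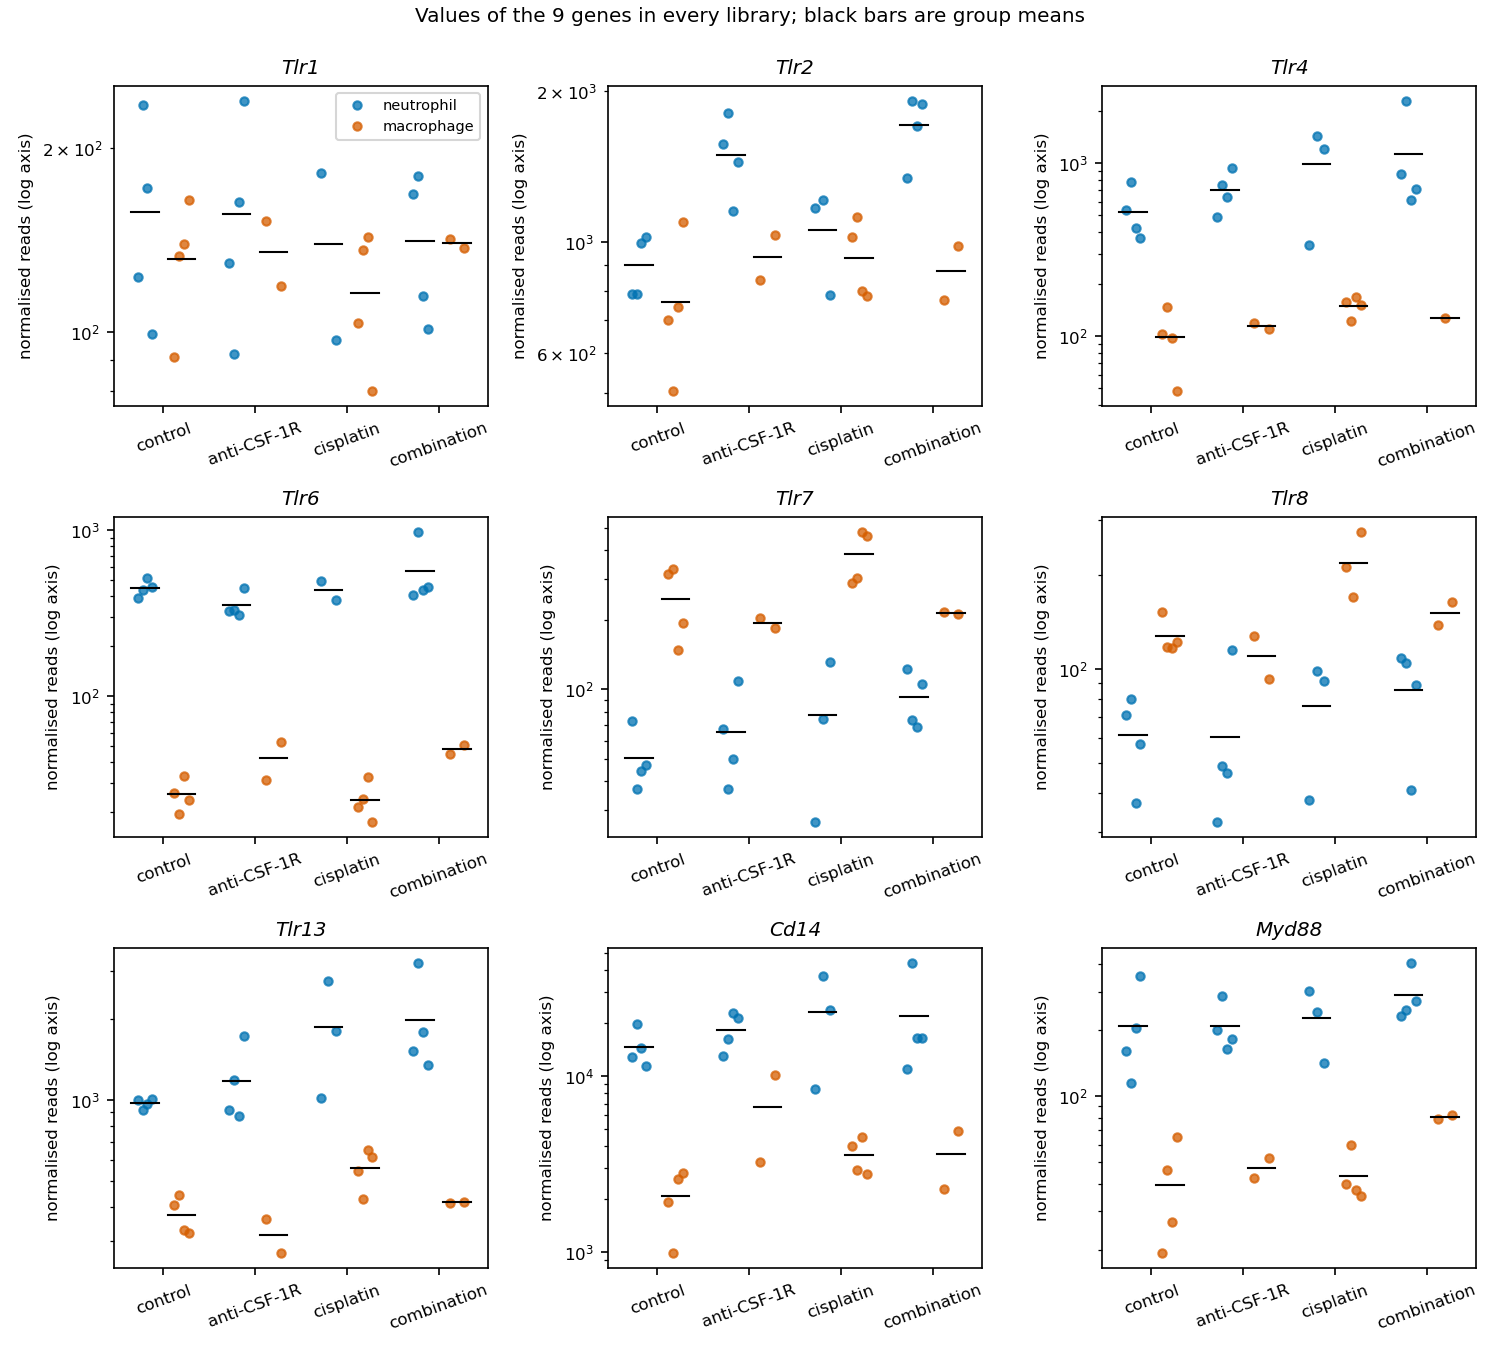
Normalised read count (log axis) of each gene in every library with a decoded value, by treatment, in neutrophils (blue) and macrophages (orange), with black bars for group means. The cell types are apart for Cd14, Tlr4, Tlr6, Tlr13 and Myd88 (lower in macrophages) and for Tlr7 (higher) in every treatment. Neutrophil Tlr2 is highest with anti-CSF-1R and the combination. The macrophage means of Tlr4, Tlr7, Tlr8 and Tlr13 are highest with cisplatin.

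In neutrophils, Tlr2 came nearest to the threshold. It stood at 1566, 1806, 1152 and 1442 with anti-CSF-1R, at 1172, 1214 and 786 with cisplatin and at 1345, 1915, 1707 and 1886 in the combination, against 786 to 1025 in controls. Every anti-CSF-1R and every combination library was above every control library. The log2 difference from control was 0.93 ± 0.22 (SE, interval of 2 SE from 0.48 to 1.37, adjusted p = 0.056) in the combination and 0.72 ± 0.22 (SE, adjusted p = 0.324) with anti-CSF-1R. Against cisplatin alone the combination differed by 0.71 ± 0.24 (SE, adjusted p = 0.387), again without overlap. Non-overlap of this kind was found in 11.3%, 7.77% and 10.5% of all genes in these 3 comparisons. The summed level of 6 monocyte markers was 1342 to 2022 in controls, 1975 to 3565 with anti-CSF-1R and 2509 to 8899 in the combination, and the part of these markers in the Tlr2 values was not tested. Over the 28 alternatives the combination difference lay between 0.56 and 1.04, with adjusted p from 0.045 to 0.248, and it passed in 5 of them.

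Tlr13 in neutrophils stood at 918, 1183, 868 and 1721 with anti-CSF-1R, at 1012, 2761 and 1794 with cisplatin and at 1511, 3230, 1790 and 1348 in the combination. All cisplatin and combination libraries were above the control range of 918 to 1006, and 11.5% and 11.3% of all genes did not overlap in these comparisons. The combination differed from control by 0.93 ± 0.31 (SE, adjusted p = 0.171) and cisplatin by 0.82 ± 0.34 (SE, adjusted p = 0.627). The highest values of both groups came from the 2 libraries that stood apart. Without them the differences were 0.66 (adjusted p = 0.337) and 0.47 (adjusted p = 0.936).

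Tlr4 in neutrophils stood at 492, 747, 638 and 935 with anti-CSF-1R, at 336, 1432 and 1211 with cisplatin and at 869, 2310, 614 and 712 in the combination. These ranges overlap the control range of 368 to 779, and the combination difference was 0.94 ± 0.43 (SE, adjusted p = 0.323). It was 0.52 (adjusted p = 0.646) without the 2 libraries that stood apart, which moved it by more than 1.5 times on the log2 scale.

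Cd14 in neutrophils stood at 13052, 16292, 22732 and 21506 with anti-CSF-1R, at 8521, 37034 and 23726 with cisplatin and at 10989, 44243, 16393 and 16417 in the combination. All 3 groups overlap the controls. The combination difference was 0.41 ± 0.45 (SE, interval of 2 SE from -0.50 to 1.31, adjusted p = 0.712), and without the 2 libraries that stood apart it was -0.0002 (adjusted p = 1). The summed monocyte markers of neutrophils were 1342 to 2022 in controls, 1746, 4259 and 3317 in the 3 cisplatin libraries, and 4053, 8899, 2509 and 3421 in the combination. All 4 combination libraries and 2 of the 3 cisplatin libraries were above every control, with the 2 libraries that stood apart the highest of their groups. The part of these markers in the Cd14, Tlr4 and Tlr13 values was not tested.

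Tlr1, Tlr6, Tlr7, Tlr8 and Myd88 of neutrophils did not pass either. Tlr6 means ran from 353 (anti-CSF-1R, 307 to 447) to 571 (combination, 409 to 984), with 984 in combination library 2. The combination difference of Tlr6 from control was 0.25, and it turned to -0.05 (adjusted p = 0.956) without the 2 libraries that stood apart. Tlr7 means ran from 50.3 in controls to 92.5 in the combination (68.6 to 123; log2 0.87 ± 0.41 SE, adjusted p = 0.333). Tlr8 means ran from 60.6 to 85.5 and Myd88 means from 208 to 290, with overlap between all neutrophil groups of both genes.

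In macrophages, Cd14 came nearest to the threshold. It stood at 3244 and 10153 with anti-CSF-1R, at 4029, 2941, 4508 and 2795 with cisplatin and at 2282 and 4911 in the combination, against 987 to 2817 in controls. Both anti-CSF-1R libraries were above all controls (log2 1.57 ± 0.48 SE, interval of 2 SE from 0.61 to 2.53, adjusted p = 0.0999), a non-overlap also found in 29.8% of all genes. The value of 10153 came from the library with the mast cell markers. Without that library the difference was 0.74 (adjusted p = 0.67), and without the other one 2.39 (adjusted p = 0.039). The summed monocyte markers of macrophages were 997 to 1271 with anti-CSF-1R and 353 to 910 in controls, without overlap. The part of the mast cell and monocyte markers in the Cd14 values was not tested.

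Tlr6 in macrophages stood at 31.3 and 53.01 with anti-CSF-1R, at 21.4, 23.8, 32.3 and 17.3 with cisplatin and at 44.9 and 50.5 in the combination. The value of 53.01 came from the library with the mast cell markers. Both combination libraries were above all cisplatin and control libraries, comparisons in which 36.4% and 30.8% of all genes did not overlap. The combination differed from cisplatin by 1.01 ± 0.32 (SE, adjusted p = 0.103) and from control by 0.90 ± 0.32 (SE, adjusted p = 0.151). With array weights, which give noisier libraries less weight, the difference from cisplatin passed (1.04, adjusted p = 0.0178). In that setting 1559 of all 9099 genes passed against cisplatin, instead of 295.

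Myd88 in macrophages stood at 42.4 and 52.2 with anti-CSF-1R, at 39.9, 60.1, 37.4 and 35.1 with cisplatin and at 78.98 and 81.7 in the combination. The combination libraries lay above all others of the cell type. Groups did not overlap in 30.8% of all genes against control and in 36.4% against cisplatin. The combination differed from control by 1.16 ± 0.39 (SE, adjusted p = 0.133) and from cisplatin by 0.91 ± 0.39 (SE, adjusted p = 0.21). With array weights both passed (1.25, adjusted p = 0.0216, and 1.02, adjusted p = 0.0241), and the first also passed without macrophage control library 4 (1.45, adjusted p = 0.0257). Array weights let 823 of all 9097 genes pass against control, instead of 267, and 1559 of 9099 against cisplatin, instead of 295. Both genes were far higher in neutrophils. The summed neutrophil markers of macrophages were 1348 and 1489 in the combination, 192 to 371 with cisplatin and 251 to 1520 in controls. Monocyte markers were 961 to 2505, 533 to 1035 and 353 to 910 in the same order. Eosinophil markers were 34.4 to 217, 6.66 to 9.94 and 6.75 to 20.9. Fibroblast (71.8 to 320) and endothelial (99.5 to 165) markers of the combination were also above all controls (up to 67.3 and 95.03). The part of all these markers in the Tlr6 and Myd88 values was not tested.

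Mean Tlr7, Tlr8 and Tlr13 of macrophages were highest with cisplatin, and so was mean Tlr4. None of these differences from control passed. The 4 other measured Toll-like receptors had a median log2 difference from control of -0.11 with cisplatin (all genes -0.005), and none passed. Tlr7 stood at 289, 303, 481 and 462 with cisplatin, at 204 and 184 with anti-CSF-1R and at 216 and 211 in the combination. Its cisplatin values overlap the control range of 148 to 330 (0.67 ± 0.26 SE, adjusted p = 0.383). They lie above both combination values, in a comparison in which 36.4% of all genes did not overlap. The combination minus cisplatin difference was -0.80 ± 0.32 (SE, adjusted p = 0.172). It passed with array weights (-0.86, adjusted p = 0.0363), with which 1559 of all 9099 genes passed, instead of 295. Tlr8 stood at 212, 170 and 276 with cisplatin, the fourth value being left out, at 127 and 92.97 with anti-CSF-1R and at 138 and 164 in the combination. Every decoded cisplatin value was above the control range of 116 to 152 (0.76 ± 0.22 SE, adjusted p = 0.224), as in 7.18% of all genes. Tlr13 stood at 543, 428, 649 and 614 with cisplatin, at 361 and 269 with anti-CSF-1R and at 414 and 417 in the combination, against 320 to 443 in controls (cisplatin minus control 0.57 ± 0.19 SE, adjusted p = 0.307). The groups of Tlr13 overlap in 1 cisplatin library.

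Tlr2 and Tlr1 of macrophages showed small differences, and Tlr4 a larger one with cisplatin, which did not pass. Tlr2 stood at 839 and 1032 with anti-CSF-1R, 1023, 1122, 798 and 781 with cisplatin and 766 and 982 in the combination, all inside the control range of 504 to 1099 except 1 cisplatin library. Tlr4 stood at 157, 123, 168 and 151 with cisplatin, where the control range was 47.99 to 148 (0.69 ± 0.28 SE, adjusted p = 0.424). That difference was close to the one of Tlr7 (0.67). The Tlr1 differences in macrophages lay between -0.19 and 0.31.

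**Figure D4:**
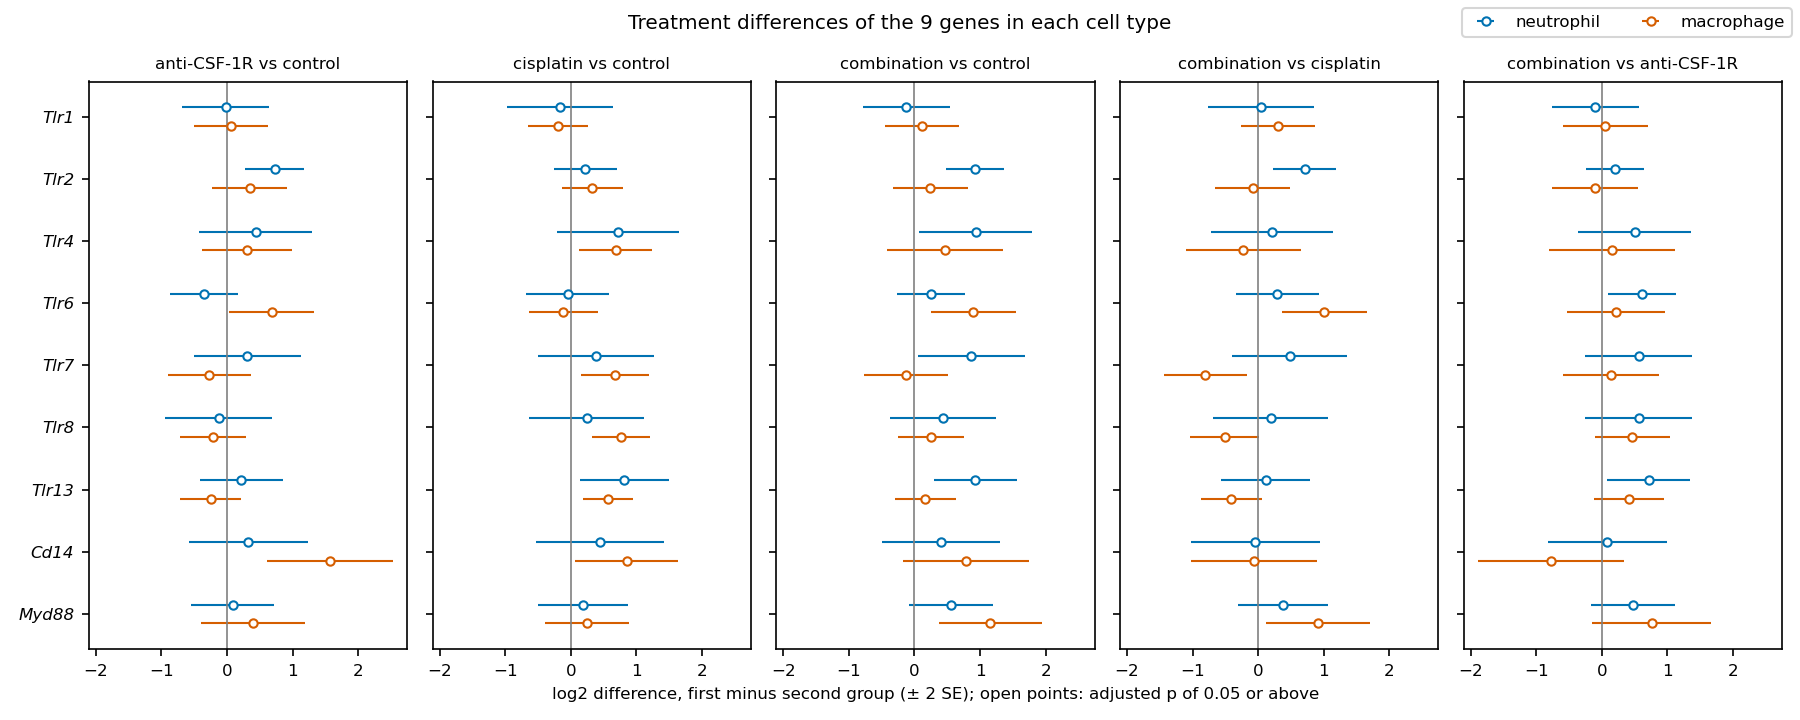
Log2 difference between treatments (first minus second group, ± 2 SE) of the 9 genes in neutrophils (blue) and macrophages (orange), for 5 comparisons. All points are open, since none passed an adjusted p of 0.05; the largest are macrophage Cd14 with anti-CSF-1R (1.57) and macrophage Myd88 in the combination (1.16).

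Whether treatment acted differently on the 2 cell types was tested as the difference of effects. None of the 9 genes passed for anti-CSF-1R against control (0.0734% of all genes passed), cisplatin against control (0.0511%) or the combination against cisplatin (0.0516%). Unadjusted p values under 0.05 numbered 1, 0 and 2, in tests by limma, and limma-voom called none. Tlr6 had the smallest of the first (1.04 ± 0.40 SE, adjusted p = 0.527), with a higher macrophage and a lower neutrophil mean under anti-CSF-1R. The higher macrophage mean rests on anti-CSF-1R library 2 (53.01), which held the mast cell markers. Library 1, at 31.3, lay inside the control range of 19.5 to 33.1. Without library 2 the difference of effects was 0.67. Tlr2 (-0.79 ± 0.37 SE, adjusted p = 0.496) and Tlr7 (-1.29 ± 0.60 SE, adjusted p = 0.5) had the smallest of the last.

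The wider pathway was described with 96 listed genes, of which 87 were in the table; genes named here beyond the 4 of smallest p in a comparison were chosen after their values were seen. In control macrophages 12 of the 87 were higher and 48 lower than in neutrophils, against 26.4% and 23.1% of all genes, with a median log2 difference of -1.15 (all genes 0.15). Of 25 measured targets 21 were lower, among them Irg1, the enzyme that makes itaconate (25.4 from 2 decoded values against 4159, log2 -7.29, adjusted p = 2.66e-12), Clec4e, a receptor of mycobacterial glycolipid (159 against 6809), and Tnf (71.6 against 1339, log2 -4.28, adjusted p = 4.14e-10). The chemokine Ccl5 and the co-stimulatory receptor Cd40 were the 2 targets that were higher, Ccl5 on 1 decoded macrophage and 2 decoded neutrophil values. Of 15 inhibitors 11 were lower and none higher, such as Nfkbia, which holds NF-kB in the cytoplasm (117 against 1353), and Irak3, a kinase-dead IRAK (25.1 against 255). Of 20 adaptors and kinases 8 were lower, including Pik3ap1 (80.7 against 585, adjusted p = 1.36e-09), Tirap, which bridges Myd88 to Tlr2 and Tlr4 (22.6 against 153), and Irak2 (158 against 807).

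Of 4 other measured Toll-like receptors, 3 were higher in control macrophages: the DNA receptor Tlr9 (190 against 32.7), Tlr12 (67.4 from 2 decoded values against 3.42) and the double-stranded RNA receptor Tlr3 (72.3 against 16.4). Of 12 accessory genes 6 were higher and 2 lower. Unc93b1, which carries endosomal receptors to their compartment, was 2.33-fold higher (454 against 199), Cd180 5.11-fold (326 against 64.5) and its partner Ly86 3.83-fold (298 against 79.1). Lbp, the lipopolysaccharide-binding protein (3.26 against 40.06), and Slc15a3 (357 against 782) were lower. Without the groups in the decoding 11 pathway genes were higher and 47 lower, and without the 2 neutrophil libraries that stood apart 12 and 48.

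Within macrophages, pathway genes passed in 4 of 5 treatment comparisons, mostly upwards. With anti-CSF-1R against control 4 of 83 tested were higher (1.08% of all genes were): Il10, an anti-inflammatory cytokine, Nfkbia, the chemokine Cxcl3 and Irg1. Each rested on 1 decoded anti-CSF-1R value, from library 2, whose summed mast cell markers were 9576 against 17.4 in library 1, so these calls describe that library and have no replicate. Nfkbia, for example, stood at 625 there against a control mean of 117 (log2 2.46 ± 0.41 SE, adjusted p = 0.015). Nfkbia alone also passed when the points were placed without the groups. Limma-voom, which used the most probable place of every value, called none of the 4 and called Cxcl1 instead. With those same places limma called Cxcl1 and Nfkbia higher, so the difference is not one of test alone. The part of the mast cell markers in these values was not tested. In the combination against control 5 of 82 were higher (1.48% of all genes were), among them Jun, a subunit of AP-1 (516 against 175, log2 1.62 ± 0.32 SE, adjusted p = 0.0154), and Dusp1, a phosphatase of MAP kinases (1415 against 460, adjusted p = 0.0353). Of the other 3, Irg1 had 1 decoded combination value, and Saa3 had 1 decoded value in each group. Against cisplatin 7 of 82 were higher (1.57% of all genes were), among them Ccl3 (625 against 134, adjusted p = 0.00771), Ccl5 (250 against 18.3, adjusted p = 0.00468) and the inhibitory receptor Cd300a (398 against 118, adjusted p = 0.00269). Among the others, Irg1 and Cd40 had 1 decoded combination value, and Saa3 1 in each group. In control neutrophils Ccl3 stood at 4222, Cd300a at 935, Jun at 595 and Dusp1 at 2871, all above the macrophage levels. Ccl5 stood at 5.92 there, from 2 decoded values, below the macrophage levels. Cd40 was also higher in control macrophages than in control neutrophils. The summed neutrophil markers of macrophages were 1348 to 1489 in the combination, 192 to 371 with cisplatin and 251 to 1520 in controls. Monocyte markers were 961 to 2505, 533 to 1035 and 353 to 910 in the same order. Eosinophil markers were 34.4 to 217, 6.66 to 9.94 and 6.75 to 20.9. The part of these markers in the macrophage values was not tested. Cd300a was the one pathway gene that fell with cisplatin against control, as 0.206% of all genes did (118 against 291, adjusted p = 0.0141), a call lost when the points were placed without the groups. With the points placed without the groups, Irg1, Jun and Saa3 still passed in the combination against control, and Dusp1 and Cxcl10 did not. Against cisplatin Ccl3, Cd300a, Irg1 and Jun still passed, and Ccl5, Cd40 and Saa3 did not.

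In neutrophils, none of 86 pathway genes passed in any of the 5 treatment comparisons in limma or limma-voom. Without the 2 libraries that stood apart Rel passed for anti-CSF-1R against control, and with the most probable place for every value Cxcl10 passed for the combination against control. In limma 25, 8, 19, 9 and 9 of the 86 had an unadjusted p under 0.05, in the order of comparisons above, where 8.43%, 7.41%, 14.7%, 8.22% and 9.22% of all genes did. The median log2 difference of the 25 targets was 0.78 with anti-CSF-1R, 0.38 with cisplatin and 0.72 in the combination against control, where all genes had medians of 0.01, 0.02 and 0.02. Tnf, for example, stood at 979 to 1844 in controls, 2081 to 5986 with anti-CSF-1R and 1431 to 2510 in the combination, and at 1090 to 2119 with cisplatin.

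Several members varied together over libraries of a cell type, which share the size factor and the treatment groups; these pairs were singled out after their values were seen. In the 15 neutrophil libraries Tlr4 and Cd14 had a Pearson r of 0.875 (Spearman 0.771) and Tlr4 and Tlr13 of 0.845 (Spearman 0.675). Without cisplatin library 2 and combination library 2 these were 0.723 and 0.646. Cd14 and Tlr13 fell from 0.72 to 0.291 without them, so that relation rests on those libraries. In macrophages Tlr13 went with Tlr7 (r = 0.877, Spearman 0.874, 12 libraries) and Tlr8 (r = 0.912, Spearman 0.782, 11 libraries), and r was 0.73 and 0.775 without the 2 libraries farthest from the median of Tlr7 or Tlr8. Over all 36 pairs the median r was 0.243 in neutrophils and -0.045 in macrophages.

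The genes most like each member were sought among genes whose average log2 level reached 5 or more in each cell type, by the Pearson r of deviations from the cell type mean over 26 or 27 libraries, each gene out of 3541 or 3542. Cd14 was most like Cxcl2, a neutrophil-attracting chemokine (0.894), Snx18 (0.888) and the chemokine receptor Ccr1 (0.871). Tlr13 was most like Fbxl5 (0.879), Tlr4 like Diap1 (0.873), Tlr6 like Prdx6 (0.807), and Tlr2 like Nfe2l2, a transcription factor of the oxidative stress response (0.802). The best values were 0.767 for Myd88 (H2-K1), 0.765 for Tlr8 (Rassf4) and 0.734 for Tlr7 (Klf3). Tlr1 had no close match, with Tcf25 first at 0.599.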

How the data were processed

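RNA-seq of 27 sorted-cell libraries, made from 10 ng RNA each with the NuGen Ovation V2 and Encore kits per the labels' protocols, was used. The authors deposited 1 table of normalised signal, read counts divided by a size factor; the tools listed in the submitters' processing notes are TopHat2 2.0.11, DESeq2, Partek 6.6, CASAVA 1.8 and R 3.3.1, with the build mm10, and which tool made which step, and the strand setting of the counting, are not given in the sources used here. Many values had lost their decimal point. Each point was restored from the whole-read step of its library and a negative binomial model over genes and groups, and 6.59% of values, with no place of probability 0.95 or more, were left out. A value of 1 stands for 0 reads or, where 1 read is worth less than 1, for the few reads worth 1 or less. This placing can move a low value by a factor of 10, so an alternative placed points without knowledge of the groups.

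Differences were fitted on log2(value + 1) with limma 3.58.1 (R 4.3.3; empirical Bayes with trend), over genes at 10 or more in at least 2 libraries, with Benjamini-Hochberg adjustment over all genes and a threshold of 0.05. A count test was not the main test, since the values are normalised. The 4 groups of a cell type shared 1 fit, and all 8 groups 1 fit for cell type comparisons and differences of effects, 17 comparisons in all. Fold changes on this scale understate those of low genes. Intervals are 2 SE either side. The fitting was also run on simulated data. These had the same dispersion for every gene and no library that stood apart, so the run does not cover such libraries. Tables and figures were made with Python 3.11.15, pandas 2.3.3, numpy 2.4.6 and matplotlib 3.10.9. All 27 columns matched a sample by name. Across genes, r between replicate libraries was 0.919 to 0.969, and no pair was identical. Whether libraries of a group came from different mice is not in the labels; a p-value here measures the spread among these samples alone, and that spread may be technical.

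The 9 genes and the gene lists were chosen with earlier results of these data known. Named were all 9 genes, up to 4 pathway genes of smallest p past the threshold per comparison, and the 3 genes most alike. Alternatives were other scalings, filters, pseudocounts, thresholds, array weights, limma-voom, other decodings and leaving out libraries. Limma-voom was run on the most probable place of every value, with none left out.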

Additional observations from a re-analysis of the deposited data

Results flagged for a closer look

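Of 44 sets of 4 libraries (1 gene in 1 group), 5 held a library whose gap to its nearest neighbour, divided by the range, was above Dixon's 95% critical value; chance gives about 1 in 20. In neutrophils of the combination, library 2 stood at 2310 for Tlr4 (the others 614 to 869, ratio 0.85). The same library stood at 984 for Tlr6 (the others 409 to 457, ratio 0.917). It also stood at 44243 for Cd14 (the others 10989 to 16417, ratio 0.837). Its summed neutrophil marker level, 99728, was the highest of all libraries, and the part of this in the 3 values was not tested. In anti-CSF-1R neutrophils, library 4 stood at 447 for Tlr6 (the others 307 to 330, ratio 0.833). In control macrophages, library 1 stood at 152 for Tlr8 (the others 116 to 122, ratio 0.837).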

How the results depend on the processing

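No paired analysis was possible because the labels number no replicates across groups. The 27 member differences that passed were recomputed under the alternatives 1079 times. Of these, 1070 kept direction and side of the threshold, 8 no longer passed and 1 changed sign. Many of the 1079 could hardly fail. The looser threshold of 0.10 cannot undo a call. Leaving out a library of a group outside the comparison keeps the estimate and alters only its spread and adjusted p. The 1070 therefore overstate how firmly the calls hold. The change of sign was Tlr2 in the combination under quantile normalisation (0.0019, adjusted p = 0.996); the cause was not tested. Of the 10 treatment comparisons, in which no member passed, 4 gained members. Array weights also changed how many of all genes passed. In macrophages these were 823 of 9097, instead of 267, for the combination against control. Against cisplatin they were 1559 of 9099, instead of 295. In neutrophils 71 of 9123 genes passed for the combination against control, instead of 65. For macrophages with anti-CSF-1R against control, 1 (Cd14) passed at a threshold of 0.10, and 0 to 1 with a library left out. For macrophages of the combination against control, 1 (Myd88) passed with array weights and 0 to 1 with a library left out, and against cisplatin 3 passed with array weights (Myd88, Tlr6 and Tlr7). For neutrophils of the combination against control, 1 (Tlr2) passed with genes at 50 or more, with array weights and at a threshold of 0.10, and 0 to 1 with a library left out. Between cell types in the combination, 4 to 7 members passed with a library left out, 4 without macrophage combination library 1, which left Tlr4 with no value. With 2 libraries in each of these macrophage groups, the remaining sample was then assumed to vary like the other groups. The causes were not tested.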
